A study of Mus musculus with 48 samples.

Results

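The genes that the parietal cell uses to secrete acid were followed in whole tissue from the junction of oesophagus and stomach of mice with an interleukin-1 beta transgene and of mice without it. They were the 10 genes Atp4a, Atp4b, Kcne2, Kcnq1, Slc26a7, Slc26a9, Aqp4, Esrrg, Slc9a4 and Slc9a2, out of 22180 gene symbols on the array. They were listed by name, and each was read from its brightest probe set that carried a single symbol. All 10 were on the array with 1 such probe set each, so the choice of probe set decided nothing here, and all 10 passed the filter on dim genes in all 48 arrays. Values are log2 signals, so a difference of 1 is a 2-fold change of signal.

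The parietal cell of the gastric gland secretes hydrochloric acid through a proton pump, the H+/K+-ATPase, which exchanges cytosolic protons for luminal potassium. Potassium has to return to the lumen through an apical channel, chloride has to leave by the apical face, and the bicarbonate made in the process leaves by the basolateral face in exchange for chloride. In mice, parietal cells sit in the gastric corpus glands, close to the border with the squamous forestomach and oesophagus, and their loss with expansion of mucous cells is a known accompaniment of chronic gastric inflammation. The catalytic subunit of the pump is encoded by Atp4a and the glycosylated subunit by Atp4b. Kcnq1 encodes the pore of the apical potassium channel and Kcne2 its accessory subunit. Slc26a9 encodes an apical chloride channel and transporter, Slc26a7 a basolateral chloride/bicarbonate exchanger, Aqp4 a basolateral water channel, and Slc9a4 and Slc9a2 the sodium/proton exchangers NHE4 and NHE2. Esrrg encodes an orphan nuclear receptor that in mice acts on ion transport and energy genes of parietal cells.

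The 48 samples, 1 array each, formed 16 groups of 3. The Notch lines carried the pL2 transgene and, with a driver named Dclk (a tuft cell gene) or Lgr5 (a stem cell gene) and after tamoxifen, a floxed Notch1 (labelled Notch1fl_fl), a floxed Notch2 (Notch2fl_fl) or an activated Notch2 (Notch2IC_LacZ). They are called Dclk_Notch1fl, Dclk_Notch2fl, Dclk_Notch2IC, Lgr5_Notch1fl, Lgr5_Notch2fl and Lgr5_Notch2IC. Tamoxifen was given at 3 to 5 months in the Lgr5 lines and at 5 to 6 months in the Dclk lines, with endpoints at 9 to 11 and 10 to 13 months. Mice labelled pl2_IL8 were taken at 9 months (pL2_IL8_9mo) and at 12 months (pL2_IL8_12mo), and all other groups at 12 months. The Notch, IL8 and FXR lines were kept at the MRI facility on chow. Mice labelled pl2_FXR (pL2_FXR) were set against the line labelled FXR, whose label does not say what was done to the bile acid receptor FXR. Mice with pL2 alone came from the MRI facility on chow (pL2_MRI_chow) and from the Freising facility on chow or a high-fat diet (pL2_Freising_chow, pL2_Freising_HFD), and wild-type mice from the same settings were WT_MRI_chow, WT_Freising_chow and WT_Freising_HFD. The study used these groups to ask how diet, IL8, FXR and Notch signalling bear on progression in this model of Barrett oesophagus. In the published model of this name, an Epstein-Barr virus promoter drives human interleukin-1 beta in squamous epithelium of oesophagus and forestomach; the labels used here do not state the promoter. Sample titles carry 1 letter code for the wild-type, pL2 and FXR mice of MRI and another for each of the Freising, IL8 and Notch mice. At Freising no wild-type title carries a further number, whose meaning the labels do not give. Every title of pL2_Freising_chow carries it, as does every title of pL2_Freising_HFD but that of replicate 2. Within the chow arrays of Freising, the genotype and whatever that number stands for cannot be told apart. For the IL8 and Notch lines against pL2_MRI_chow, the genotype and whatever the letter code stands for cannot be told apart. The Notch lines also differed from pL2_MRI_chow in tamoxifen and age. Nothing in the labels says that the 3 samples of a group were separate mice, and p-values measure only the spread between these samples, which may be technical.

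Array medians lay between 4.03 and 4.27, and the correlation of 2 arrays of a group was 0.827 to 0.988 with a median of 0.964 over 48 pairs. The gastric pepsinogen gene Pgc was at 11.81 or above and the squamous keratin gene Krt13 at 9.19 or above in every array, so each sample held gastric glands and squamous epithelium. Il1b, the mouse gene, was at 7.17, 7.25 and 8.88 in pL2_MRI_chow, against 3.71, 6.26 and 4.93 in WT_MRI_chow, and whether its probe set also reads the transgene is not known here. The marker lists named below were chosen with earlier results of these data known. In 10 arrays the hepatocyte or enterocyte marker mean was above 8. The lowest values of the 10 genes fell in 3 arrays. All but 3 of the genes had their lowest value in pL2_Freising_HFD replicate 2, Slc26a7 and Slc9a4 in Lgr5_Notch2IC replicate 3, and Slc26a9 in Lgr5_Notch1fl replicate 2. The enterocyte marker mean was 10.02 in Lgr5_Notch2IC replicate 3, and the hepatocyte marker mean was 11.46 in Lgr5_Notch1fl replicate 2. No such list was high in pL2_Freising_HFD replicate 2 (hepatocyte genes at 4.66 and enterocyte genes at 4.18), which had the highest neutrophil marker mean of its group, 8.73. For the 10 genes, the comparisons that hold these arrays are given below with and without them.

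The start regions of 3 genes are shown for the promoter context of the pump, the channel subunit and the chloride channel. RefSeq start regions on GRCm38.p6, from 250 bases before to 50 bases after the annotated start, were held for 4 of the 10 genes with 8 start sites in all. The start regions were searched on both strands for 3 short motifs: the half-site AAGGTCA bound by oestrogen-related receptors such as the product of Esrrg, the GATA site AGATAA and the TATA box TATAAA. Over all 32851 RefSeq start regions, 4.72% held the first, 11.2% the second and 13.6% the third. The sequences run 5′ to 3′ on the plus strand, and capitals mark motif matches.
Atp4a, chr7:30711959-30712258: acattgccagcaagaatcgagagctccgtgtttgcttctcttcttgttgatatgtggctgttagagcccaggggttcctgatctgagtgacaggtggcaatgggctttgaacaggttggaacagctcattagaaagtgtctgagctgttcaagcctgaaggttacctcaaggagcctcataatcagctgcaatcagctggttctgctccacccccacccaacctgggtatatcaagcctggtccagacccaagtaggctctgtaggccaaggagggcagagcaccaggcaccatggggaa
Kcne2, first listed start, chr16:92292139-92292438: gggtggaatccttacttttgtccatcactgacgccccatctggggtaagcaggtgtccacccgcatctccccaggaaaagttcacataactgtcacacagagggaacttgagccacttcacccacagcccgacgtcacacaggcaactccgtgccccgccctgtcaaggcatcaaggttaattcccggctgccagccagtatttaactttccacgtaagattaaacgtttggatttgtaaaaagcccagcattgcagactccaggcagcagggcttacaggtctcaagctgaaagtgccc
Slc26a9, chr1:131743772-131744071: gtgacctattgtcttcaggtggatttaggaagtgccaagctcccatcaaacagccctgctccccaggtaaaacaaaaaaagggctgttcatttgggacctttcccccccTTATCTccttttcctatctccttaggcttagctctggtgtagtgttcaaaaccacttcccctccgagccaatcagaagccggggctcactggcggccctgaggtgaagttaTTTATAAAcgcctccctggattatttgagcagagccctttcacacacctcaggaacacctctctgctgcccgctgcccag
The Atp4a region and both Kcne2 regions held none of the 3 motifs. The Slc26a9 region held a reverse GATA match whose first base is at -141 from the start site, and TATA box matches on both strands that overlap each other, first bases at -28 and -30. The first of the 4 Esrrg start regions held a reverse TATA box match at -19, and no start region of the 4 genes held the oestrogen-related receptor half-site. A match is a description of letters and not a bound site. Slc9a4 and Slc9a2 are neighbours on chromosome 1, with 0 protein-coding genes between them.

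Of the 10 genes, Atp4a alone had levels that divided the arrays by the transgene, and by a narrow gap. Atp4a, the catalytic pump subunit, was at 10.78 to 12.57 (median 12.28) in the 36 arrays with the transgene, against 12.58 to 12.99 (median 12.76) in the 12 arrays without it. Every array with the transgene lay below every array without it for this gene. Of 15242 genes tested, 7 (0.0459%) separated the arrays in this way with the transgene lower, and 37 (0.243%) with the transgene higher. The separation was seen after the values were known, and it is a description of these arrays. For Atp4b, the second pump subunit, 3 of the 36 transgenic arrays were above the lowest of the 12 others. That number was 7 for Slc26a9, 8 for Kcne2, 15 for Slc26a7, 18 for Esrrg, 20 for Aqp4, 21 for Kcnq1 and 29 for each of Slc9a4 and Slc9a2. Both pump genes lay close to the top of the scale, at means of 12.30 and 12.34 where the highest value of any probe set was 13.60, and whether signals there still follow RNA in proportion was not tested. In whole tissue, fewer parietal cells and less RNA per parietal cell cannot be told apart.

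**Figure D1:**
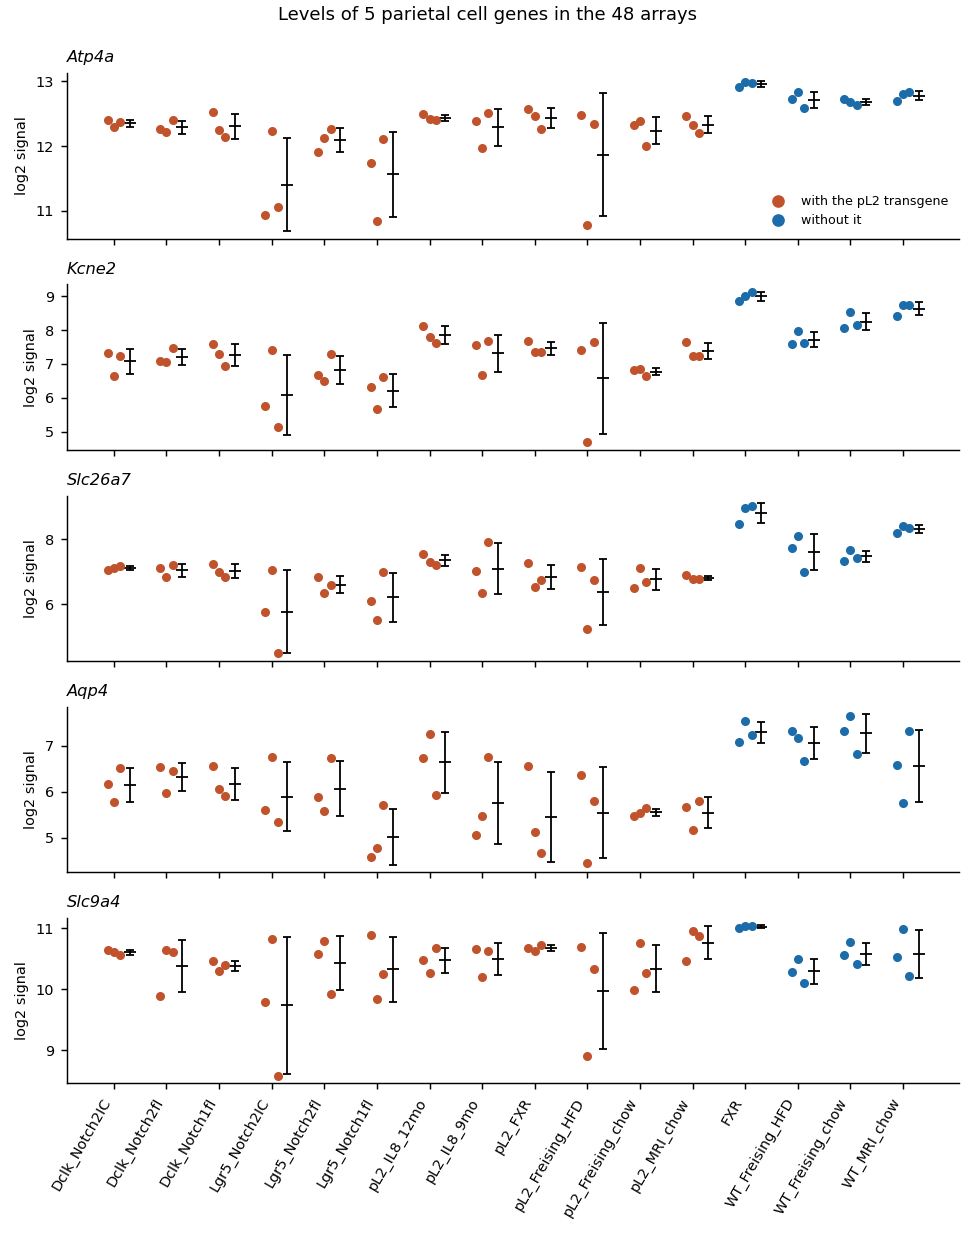
Log2 signal of Atp4a, Kcne2, Slc26a7, Aqp4 and Slc9a4 in the 48 arrays (vertical axes), by group (horizontal axis), with 1 point per array and a bar for the mean ± SD of 3 arrays. Orange marks arrays with the pL2 transgene and blue arrays without it; for Atp4a the highest orange point is at 12.57 and the lowest blue point at 12.58.

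Across the 16 groups, the mean of the 10 genes was highest in FXR, at 10.07, followed by WT_MRI_chow at 9.64, WT_Freising_chow at 9.64 and WT_Freising_HFD at 9.49. The transgenic groups came after these, from pL2_IL8_12mo at 9.28 down to pL2_Freising_HFD at 8.54, Lgr5_Notch1fl at 8.50 and Lgr5_Notch2IC at 8.38. Without its replicate 2, pL2_Freising_HFD had a mean of 9.13 and came 6th. When the low arrays of these groups were left out together, Lgr5_Notch1fl and Lgr5_Notch2IC remained last, at 8.84 and 8.67. When only its own lowest array was left out, either of these Lgr5 groups came 14th, above pL2_Freising_HFD. Of the 15 neighbouring pairs in the order of all arrays, 2 had arrays that did not overlap, FXR above WT_MRI_chow and pL2_IL8_12mo above Dclk_Notch2IC. Atp4a gave FXR 12.96, WT_MRI_chow 12.77, WT_Freising_HFD 12.71 and WT_Freising_chow 12.68 at the top, and Lgr5_Notch1fl 11.56 and Lgr5_Notch2IC 11.40 at the bottom, again with 2 of 15 neighbours apart. Atp4b ran from FXR at 12.84 to Lgr5_Notch2IC at 11.57, and none of its 15 neighbouring groups were apart. A test for any difference among the 16 groups (limma's F test, adjusted p below 0.05) was passed by 8 of the 10 genes, where 52.3% of all genes tested passed. Kcne2 had the smallest adjusted p (7.23e-05), followed by Slc26a7 (7.91e-05), Atp4a (0.00154), Aqp4 (0.00189), Atp4b (0.00398), Slc26a9 (0.00716), Esrrg (0.00951) and Slc9a2 (0.0267). Kcnq1 (0.0993) and Slc9a4 (0.279) did not pass. The share of a gene's variance that lay between groups was 73.1% for Kcne2 and 72.9% for Slc26a7, 64.9% for Atp4a, and 37.2% for Slc9a4.

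**Figure D2:**
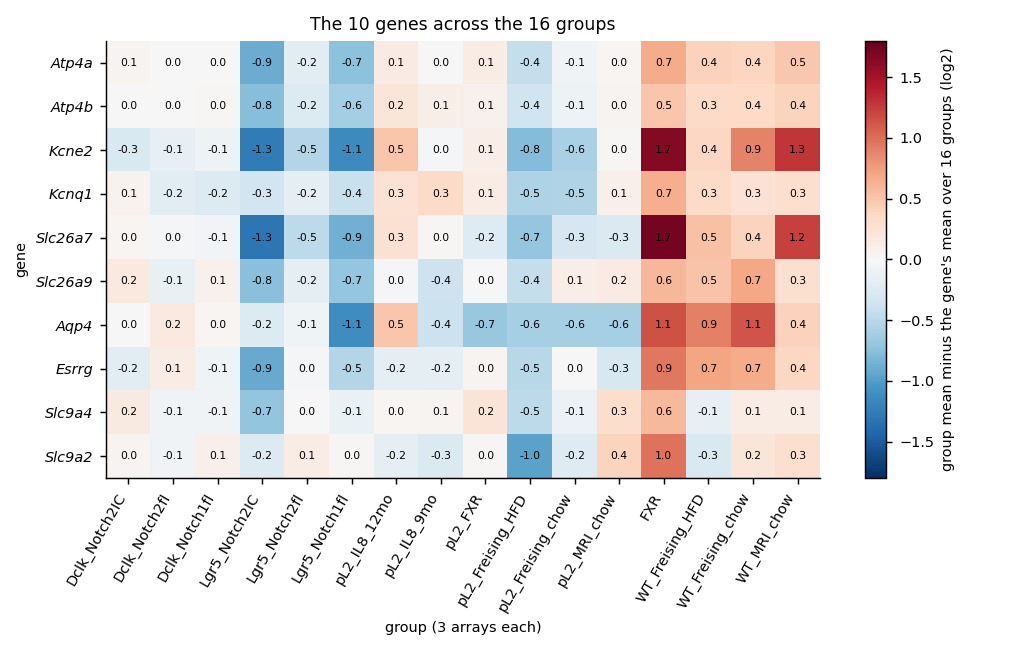
Mean log2 signal of each gene (rows) in each group of 3 arrays (columns), minus the gene's mean over the 16 groups, as colour and number. The FXR column holds the highest mean of every gene but Slc26a9, and the 4 columns on the right are the groups without the transgene.

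The transgene was first set against wild type on chow, as the average of the differences at both facilities. Kcne2, Slc26a7 and Aqp4 were lower in transgenic mice, by 2.14-fold to 2.59-fold, and the pump subunits differed by smaller amounts that did not pass the test. Lower calls (adjusted p below 0.05) were made for 3 of the 10 genes, where 12.9% of all genes tested were called lower. All 10 differences were negative, with a median of -0.47, against -0.01 over all genes tested. The arrays of 4 genes did not overlap between transgenic and wild-type mice (Atp4a, Atp4b, Kcne2 and Slc26a7), where 2.61% of all genes tested were apart in this direction.

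Among the channel genes, Kcne2 was at 7.65, 7.25 and 7.23 in pL2_MRI_chow, against 8.43, 8.73 and 8.75 in WT_MRI_chow. At Freising it was at 6.81, 6.84 and 6.64 in pL2_Freising_chow, against 8.06, 8.53 and 8.14 in WT_Freising_chow. Every transgenic array was below every wild-type array at either facility. The averaged difference was -1.37 ± 0.32 (SE, adjusted p = 0.00248), or 2.59-fold lower. Kcnq1, the pore that Kcne2 accompanies, averaged 8.89 in transgenic groups and 9.40 in wild-type groups, a difference of -0.51 ± 0.26 that did not pass (adjusted p = 0.168).

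Slc26a7, the basolateral anion exchanger, was at 6.89, 6.79 and 6.79 in pL2_MRI_chow, against 8.18, 8.41 and 8.34 in WT_MRI_chow. It was at 6.50, 7.11 and 6.70 in pL2_Freising_chow, against 7.33, 7.66 and 7.44 in WT_Freising_chow. The gap was wider at MRI, but neither facility had overlapping arrays, and the averaged difference was -1.10 ± 0.30 (adjusted p = 0.00828). Slc26a9, the apical chloride channel, differed by -0.36 ± 0.24 (adjusted p = 0.291).

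Aqp4, the water channel, was at 5.66, 5.16 and 5.80 in pL2_MRI_chow, against 6.59, 5.75 and 7.33 in WT_MRI_chow, and 1 wild-type array lay within the transgenic range. It was at 5.48, 5.53 and 5.64 in pL2_Freising_chow, against 7.33, 7.65 and 6.82 in WT_Freising_chow, with a wide gap between the groups. The averaged difference was -1.37 ± 0.34 (adjusted p = 0.00357). Aqp4 is also made by fast skeletal muscle and by glia. Skeletal muscle marker means were 5.06, 3.97 and 3.75 in pL2_MRI_chow, against 6.26, 5.81 and 6.19 in WT_MRI_chow, with 8 of 10 markers called lower. At Freising they were 3.93, 3.69 and 3.62 in pL2_Freising_chow, against 4.01, 3.98 and 3.81 in WT_Freising_chow, with 0 of 10 called either way, and there the Aqp4 difference was -1.72 ± 0.48 (adjusted p = 0.0566), against -1.02 ± 0.48 at MRI. Of the 2 glial markers tested, Gfap and Sox10, 0 were called on the averaged comparison, and their mean was 3.40 to 3.98 in the transgenic arrays and 3.48 to 4.39 in the wild-type arrays.

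The pump subunits differed less. Atp4a was at 12.46, 12.33 and 12.21 in pL2_MRI_chow, against 12.69, 12.80 and 12.83 in WT_MRI_chow. It was at 12.32, 12.39 and 12.00 in pL2_Freising_chow, against 12.72, 12.69 and 12.63 in WT_Freising_chow. The groups did not overlap at either facility, while the averaged difference, -0.44 ± 0.20, did not pass (adjusted p = 0.118). Atp4b differed by -0.40 ± 0.19 (adjusted p = 0.129) and the receptor gene Esrrg by -0.68 ± 0.28 (adjusted p = 0.0764). The exchanger genes Slc9a4 (-0.03 ± 0.26, 95% interval -0.55 to 0.49) and Slc9a2 (-0.17 ± 0.26, -0.70 to 0.35) had no call and the smallest differences of the 10. The error of each gene came from the spread in all 16 groups, including groups with much wider spread than these. In a fit of the compared groups alone, 8 of the 10 genes were called, all but Slc9a4 and Slc9a2, where 21.7% of all genes were called in either direction, with Atp4a at an adjusted p of 0.00894. With the squamous and the skeletal muscle marker mean as covariates none of the 10 was called, where 0.295% of all genes were. The differences were then -1.02 for Kcne2 (adjusted p = 0.298), -1.06 for Slc26a7 (0.165) and -1.10 for Aqp4 (0.316).

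**Figure D3:**
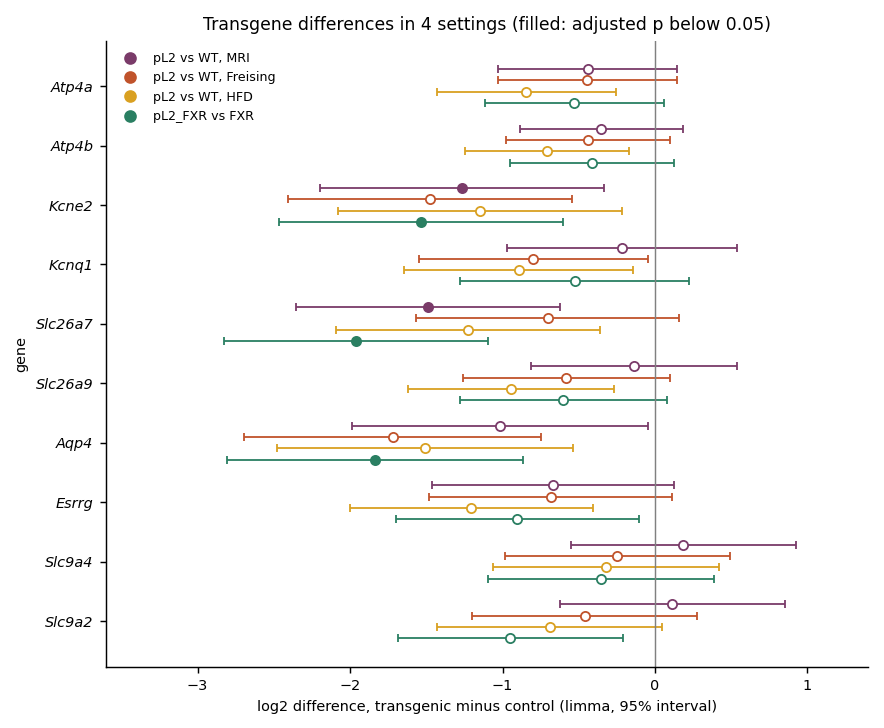
Log2 difference of each gene (vertical axis) between mice with and without the pL2 transgene in 4 settings, from limma, with 95% intervals (horizontal axis) and filled points where the adjusted p was below 0.05. In the MRI and FXR comparisons Kcne2, Slc26a7 and Aqp4 lie farthest to the left. At Freising on chow Kcnq1 lies left of Slc26a7, and on the high-fat diet Esrrg lies left of Kcne2. Slc9a4 and Slc9a2 are the only genes with points right of 0, in the MRI comparison.

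Each facility was then read alone. MRI gave lower calls for 2 genes, Kcne2 (-1.26 ± 0.46, adjusted p = 0.0425) and Slc26a7 (-1.49 ± 0.43, adjusted p = 0.0105), where 12.8% of all genes tested were called lower. The Slc26a7 call held in each of 6 fits that left out 1 array, and the Kcne2 call held in 1 of the 6 (without pL2_MRI_chow replicate 1). The arrays of 4 genes did not overlap, against 19.7% of all genes. Xist, a transcript of the inactive X chromosome, was at 12.17, 4.92 and 3.83 in pL2_MRI_chow, against 10.56, 10.87 and 10.90 in WT_MRI_chow, so 2 of the 3 transgenic arrays were low and the wild-type arrays were all high. With a sex-linked score as covariate, 1 of the 10 genes was called, Slc26a7, where 18.7% of all genes were called in either direction. At Freising, where Xist was 3.90 to 5.59 in all 12 arrays, limma called 0 of the 10 genes, with 3 at an unadjusted p below 0.05, where 1.64% of all genes tested were called. Kcne2 differed there by -1.48 ± 0.46 (adjusted p = 0.0967), and 8 of the 10 genes had arrays that did not overlap, against 13.6% of all genes in that direction. In a fit of the Freising groups alone, Kcne2 (0.0139) and Aqp4 (0.0197) were called, as were 1.91% of all genes. The difference between facilities was itself tested, and limma called 0 of the 10 genes, with 0 at an unadjusted p below 0.05 (1.76% of all genes tested passed).

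Other cell types moved with the transgene, and their part in these results was not tested. On the averaged comparison 6 of 8 neutrophil markers and 4 of 11 squamous markers were called higher, while 8 of 8 smooth muscle, 8 of 8 endothelial and 6 of 10 skeletal muscle markers were called lower. At MRI alone all 8 smooth muscle and all 8 endothelial markers were called lower, and at Freising alone 0 of either list. The endothelial mean of pL2_MRI_chow, 5.51, was the lowest of the 16 groups. Neutrophil marker means were 6.03 to 8.40 in the 6 transgenic arrays on chow and 3.84 to 5.90 in the 6 wild-type arrays. Of the other gastric lineages, 3 of 7 enteroendocrine markers were called lower with a median difference of -0.87 over the list, 0 of 6 pit cell markers were called, 1 of 5 neck cell markers was called higher, and of 7 chief cell markers 1 was called higher and 2 lower. Chief cell marker means were 8.23 to 8.98 in transgenic and 8.33 to 9.17 in wild-type arrays. With the chief and neck cell marker mean as covariate, 7 of the 10 genes were called lower, where 25% of all genes were called in either direction.

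Genes around the parietal cell were read from lists chosen with earlier results of these data known. Of 13 regulators of acid secretion, 8 were called lower and none higher on the averaged comparison, with a median difference of -0.87. The first by p were Ptger3, a prostaglandin E2 receptor that inhibits acid secretion (-1.61 ± 0.31, adjusted p = 0.000394), and Hrh2, the histamine H2 receptor that drives it (-0.99 ± 0.24, adjusted p = 0.00261). Sst, the inhibitory hormone somatostatin, named after its values were seen, fell by 1.81 on the log2 scale. The list therefore held genes of stimulation and of inhibition that were lower together.

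Of 11 further ion transport genes, 5 were called lower, with Slc4a2, the main basolateral anion exchanger (-0.55 ± 0.15), and Kcnj10, a potassium channel (-0.49 ± 0.14), first by p. Cftr, a chloride channel gene that is also in the neck cell list, was called higher (1.89 ± 0.44, adjusted p = 0.0022). Of 13 genes of tubulovesicles and the canaliculus, 2 were called higher, the motor gene Myo5b and the small GTPase gene Rab25, and 1 lower, the Rab11 adaptor gene Rab11fip2. Of 14 genes of oxidative metabolism and oestrogen-related receptors, 7 were called lower, first the dehydrogenase genes Sdha (-0.55 ± 0.10) and Idh3a (-0.53 ± 0.11), and 1 higher, the creatine kinase gene Ckmt1 (0.47 ± 0.12). The median difference was 0.09 for the trafficking genes and -0.22 for the metabolic genes, and the difference between the lists was not tested.

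On the high-fat diet, transgenic and wild-type mice differed by a median of -0.92 over the 10 genes, but limma called 0 of them, with 8 at an unadjusted p below 0.05 (1.16% of all genes tested were called). Atp4a was at 12.48, 10.78 and 12.34 in pL2_Freising_HFD, against 12.72, 12.83 and 12.58 in WT_Freising_HFD. Kcne2 was at 7.41, 4.68 and 7.64 in pL2_Freising_HFD, against 7.58, 7.97 and 7.61 in WT_Freising_HFD. Replicate 2 of the transgenic group was far below the other arrays, and for Kcne2 replicate 3 lay inside the wild-type range. Atp4a differed by -0.84 ± 0.29 (adjusted p = 0.136) with that array and by -0.30 without it, and Kcne2 by -1.15 ± 0.46 (adjusted p = 0.213) with it and by -0.20 without it. Aqp4 kept a difference of -0.96 without it, against -1.51 ± 0.48 with it. Without replicate 2 the median over the 10 genes was -0.32, and 0 were called, where 0.19% of all genes were. When replicate 1 was left out instead, 7 of the 10 genes were called, where 5.32% of all genes were. In replicate 2 the neutrophil mean was 8.73, against 6.26 and 6.64 in the other transgenic arrays, and the mean of the acid secretion regulators was 5.75, against 7.28 and 6.84. Its pit cell mean, 10.56, was the lowest of the 48 arrays, and its squamous mean, 10.42, the highest of its group. Its title was also the only transgenic one of Freising without the further number. Arrays of 4 genes did not overlap between the groups (Atp4a, Atp4b, Slc26a9 and Aqp4), where 9.32% of all genes tested were apart in that direction.

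The diet itself gave no call among the 10 genes. In transgenic mice 0 passed and 0 had an unadjusted p below 0.05 by limma, where 0% of all genes tested were called, and the largest difference was Slc9a2 at -0.73 ± 0.36. All 10 differences were negative with replicate 2 of the high-fat group, with a median of -0.37, and 8 of the 10 were positive without it, with a median of 0.18 and Slc9a2 at -0.16. In wild-type mice 0 passed and 0 had an unadjusted p below 0.05, where 0.164% of all genes were called. Kcne2 was at 7.58, 7.97 and 7.61 in WT_Freising_HFD, against 8.06, 8.53 and 8.14 in WT_Freising_chow, a difference of -0.52 ± 0.46 with no overlap of arrays. Slc9a2 was the only other gene apart (-0.50 ± 0.36), where 8.67% of all genes were apart in this direction. The difference of diet effects between genotypes was passed by 0 of the 10 genes, with 0 at an unadjusted p below 0.05 (0.0197% of all genes passed). The median of that difference was -0.25. It was 0.29 without the same array, with 0 of the 10 genes passing, where 0.0131% of all genes passed. Of the pathway genes, Sstr2, a somatostatin receptor (-1.47 ± 0.33, adjusted p = 0.0179), and Slc12a7, a potassium/chloride cotransporter (-1.15 ± 0.23, adjusted p = 0.00709), were called lower in transgenic against wild-type mice on the high-fat diet. Both calls were made with pL2_Freising_HFD replicate 2, and these genes were not read without it. Calls over all genes were 1.16% with that array and 0.19% without it.

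In the line labelled FXR, 9 of the 10 genes had their highest group mean of the series, Slc26a9 being the exception. Nr1h4, the gene of FXR, was at 4.36, 5.50 and 4.91 in FXR, against 4.91, 4.35 and 4.30 in WT_MRI_chow, and did not tell the groups apart. Slc9a2, the NHE2 exchanger, was at 8.96, 8.91 and 9.13 in FXR, against 8.23, 8.80 and 7.92 in WT_MRI_chow. Atp4a was at 12.90, 12.99 and 12.98 in FXR, against 12.69, 12.80 and 12.83 in WT_MRI_chow. The FXR arrays were above the wild-type arrays for both genes without overlap, but the differences, 0.68 ± 0.36 and 0.18 ± 0.29, did not pass. All 10 differences were positive with a median of 0.41, and limma called 0 of the 10 genes, with 0 at an unadjusted p below 0.05, where 2.12% of all genes tested were called. Arrays of 7 genes did not overlap (all but Atp4b, Slc26a9 and Aqp4), where 13% of all genes were apart in that direction.

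The FXR samples also held less squamous signal. The squamous marker mean was 6.71, 7.41 and 7.72 in FXR, against 8.91, 8.88 and 9.71 in WT_MRI_chow, and 7 of 11 squamous and 5 of 10 skeletal muscle markers were called lower. With both marker means as covariates, all 10 differences between FXR and wild type were negative, Atp4a at -0.64 (adjusted p = 0.418) and Slc26a7 at -1.13 (adjusted p = 0.252), and none was called. The direction of the FXR difference therefore turned with this setting. None of the acid secretion regulator, ion transport, tubulovesicle or metabolic genes was called between these groups.

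With the transgene on the FXR line, Slc26a7, Aqp4 and Kcne2 were called lower than in FXR alone, by 2.90-fold to 3.90-fold. Slc26a7 was at 7.25, 6.52 and 6.75 in pL2_FXR, against 8.46, 8.94 and 9.02 in FXR, a difference of -1.96 ± 0.43 (adjusted p = 0.0028). Aqp4 was at 6.56, 5.13 and 4.67 in pL2_FXR, against 7.09, 7.55 and 7.24 in FXR, a difference of -1.84 ± 0.48 (adjusted p = 0.0119). Kcne2 was at 7.69, 7.36 and 7.35 in pL2_FXR, against 8.87, 9.02 and 9.12 in FXR, a difference of -1.54 ± 0.46 (adjusted p = 0.0273). The same 3 genes were called in the averaged comparison on chow. The 2 comparisons share no array, but both used the same estimate of each gene's spread, from all 16 groups. Between pL2_FXR and FXR, lower calls were made for 5% of all genes tested. All 10 genes had every pL2_FXR array below every FXR array, where 17.7% of all genes did, and the median difference was -0.75.

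Among the members not called, Slc9a2 was at 8.16, 7.60 and 8.40 in pL2_FXR, against 8.96, 8.91 and 9.13 in FXR, a difference of -0.95 ± 0.36 (adjusted p = 0.0865). Esrrg differed by -0.90 ± 0.39 (adjusted p = 0.133) and Atp4a by -0.53 ± 0.29 (adjusted p = 0.246). The Slc26a7 call held in each of 6 fits without 1 array, the Aqp4 call in 4 and the Kcne2 call in 1 (without pL2_FXR replicate 1). Without pL2_FXR replicate 2 or 3, 1 of the 10 genes was called, where 3.79% or 4.9% of all genes were. Squamous marker means were 9.16, 9.80 and 9.44 in pL2_FXR, against 6.71, 7.41 and 7.72 in FXR, with 7 of 11 markers called higher, and 6 of 8 neutrophil markers were called higher. Both glial markers were called lower, with a mean of 3.37 to 3.66 in pL2_FXR, against 3.91 to 4.50 in FXR. With squamous and skeletal muscle covariates none of the 10 genes was called, where 0.558% of all genes were. The difference was then -0.87 for Slc26a7 (adjusted p = 0.6), -0.90 for Aqp4 (0.739), -0.30 for Kcne2 (0.935) and 0.37 for Atp4a (0.821).

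Of the pathway genes between pL2_FXR and FXR, 4 of 13 acid secretion regulators were called lower, first Sstr2 (-1.39 ± 0.33, adjusted p = 0.00614) and Sst (-2.66 ± 0.65, adjusted p = 0.00669). Cftr was called higher (3.28 ± 0.62, adjusted p = 0.000598) and no other ion transport gene was called. Rab11fip2 (-0.71 ± 0.17) was the 1 tubulovesicle gene called, lower, and Ldhb, a lactate dehydrogenase subunit (-1.07 ± 0.33), and Sdha (-0.45 ± 0.15) were the 2 metabolic genes called, also lower.

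The FXR line on the transgene gave no call. Against pL2_MRI_chow, pL2_FXR differed by -0.38 to 0.34 over the 10 genes, with a median of 0.03, and limma called 0, with 0 at an unadjusted p below 0.05 (0.0853% of all genes tested were called). Xist was at 11.50, 12.17 and 10.66 in pL2_FXR, against 12.17, 4.92 and 3.83 in pL2_MRI_chow. The difference of the FXR effects with and without the transgene was passed by 0 of the 10 genes, with 1 at an unadjusted p below 0.05, Slc9a2 (-1.06 ± 0.51, adjusted p = 0.349), where 0.138% of all genes passed. These comparisons share the FXR, WT_MRI_chow and pL2_MRI_chow arrays with those above.

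In the IL8 line, limma called none of the 10 genes at 12 months against pL2_MRI_chow, and 1 had an unadjusted p below 0.05 (1.82% of all genes tested were called). That gene was Aqp4, at 6.74, 7.25 and 5.93 in pL2_IL8_12mo, against 5.66, 5.16 and 5.80 in pL2_MRI_chow, a difference of 1.10 ± 0.48 (adjusted p = 0.229). Aqp4, Slc26a7 (0.53 ± 0.43) and Atp4b (0.17 ± 0.26) had every IL8 array above every pL2_MRI_chow array, where 14.1% of all genes did. All 8 endothelial markers were called higher in the same comparison. Between 12 and 9 months of the IL8 line, 0 of the 10 genes were called and 0 had an unadjusted p below 0.05 (0% of all genes were called). Xist also differed between these ages, at 10.70, 4.30 and 5.76 in pL2_IL8_12mo, against 11.55, 11.35 and 11.49 in pL2_IL8_9mo. Aqp4 was at 6.74, 7.25 and 5.93 in pL2_IL8_12mo, against 5.05, 5.46 and 6.75 in pL2_IL8_9mo, with overlapping arrays and a difference of 0.88 ± 0.48.

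In the Notch lines no gene was called against pL2_MRI_chow, but among the Notch lines the lowest arrays were those of Lgr5 lines. The 6 comparisons share the pL2_MRI_chow arrays. Notch1 itself differed by -0.35 ± 0.22 in Lgr5_Notch1fl and by 0.44 ± 0.22 in Dclk_Notch1fl, neither called, and Notch2 was called in none of the 4 Notch2 lines. The probe sets read the RNA of all cells in the tissue.

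Lgr5_Notch2IC had the largest differences of the 6 lines. Atp4a was at 10.93, 12.23 and 11.05 in Lgr5_Notch2IC, against 12.46, 12.33 and 12.21 in pL2_MRI_chow, a difference of -0.93 ± 0.29 (adjusted p = 0.176). Slc26a7 was at 5.77, 7.07 and 4.50 in Lgr5_Notch2IC, against 6.89, 6.79 and 6.79 in pL2_MRI_chow (-1.04 ± 0.43, adjusted p = 0.294). Slc9a4, which was called in none of the transgene comparisons, was at 9.80, 10.83 and 8.58 in Lgr5_Notch2IC, against 10.46, 10.95 and 10.88 in pL2_MRI_chow (-1.03 ± 0.36, adjusted p = 0.218). Replicate 2 lay near or inside the pL2_MRI_chow range for these genes while the others were far below it. Limma called 0 of the 10 genes, with 6 at an unadjusted p below 0.05 (0.138% of all genes tested were called). Without replicate 2, 5 were called, where 3.2% of all genes were: Atp4a (-1.34, adjusted p = 0.0106), Slc9a4 (-1.58), Atp4b (-1.17), Kcne2 (-1.94) and Slc26a7 (-1.69). Without replicate 3, the array with the high enterocyte mean, none was called, where 0.112% of all genes were. Atp4a then differed by -0.75 (adjusted p = 0.442).

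In Lgr5_Notch1fl, Kcne2 was at 6.31, 5.68 and 6.63, against 7.65, 7.25 and 7.23 in pL2_MRI_chow, a difference of -1.17 ± 0.46 (adjusted p = 0.243). Limma called 0 of the 10 genes, with 4 at an unadjusted p below 0.05 (0.144% of all genes were called). Those 4 genes, Kcne2, Slc26a9, Atp4a and Atp4b, also had arrays that did not overlap, where 8.72% of all genes were apart in that direction. Without replicate 2, the array with the high hepatocyte mean, the Kcne2 difference was -0.91 (adjusted p = 0.466) and the Atp4a difference -0.41, against -0.77 ± 0.29 with it. The median over the 10 genes was -0.30 without it and -0.56 with it. Lgr5_Notch2fl had 0 calls and 0 genes at an unadjusted p below 0.05 by limma (0.0525% of all genes were called). Dclk_Notch1fl (0%), Dclk_Notch2fl (0.256%) and Dclk_Notch2IC (0.0197%) likewise had 0 calls and 0 genes at an unadjusted p below 0.05, and their Atp4a differences from pL2_MRI_chow were -0.03, -0.04 and 0.02, each ± 0.29.

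**Figure D4:**
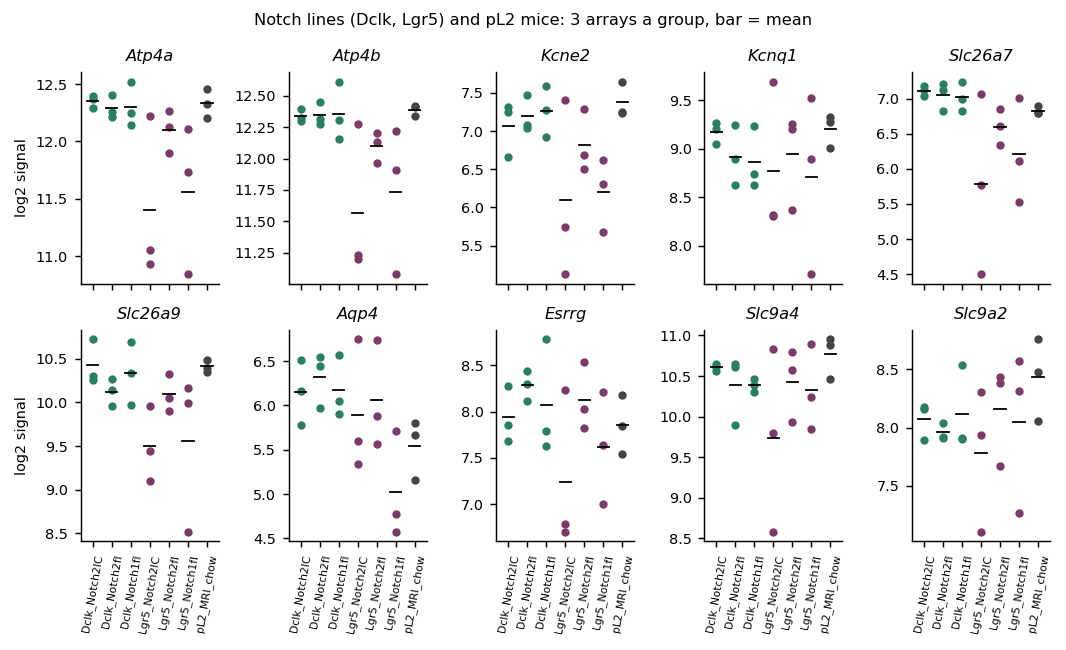
Log2 signal of each of the 10 genes (1 panel each, vertical axis) in the 3 Dclk lines, the 3 Lgr5 lines and pL2_MRI_chow (horizontal axis), with 1 point per array and a bar for the mean of 3. Atp4a lies between 12.15 and 12.52 in the Dclk lines and between 10.84 and 12.26 in the Lgr5 lines.

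When the driver lines were set against each other, the differences of means, Dclk minus Lgr5, were positive for all 10 genes with a median of 0.55, against 0.04 over all genes tested, and none was called. The smallest was that of Slc9a2 at 0.05, whose median over arrays was 7.92 in Dclk and 8.31 in Lgr5 arrays. Atp4a was at 12.15 to 12.52 (median 12.29) in the 9 Dclk arrays, against 10.84 to 12.26 (median 11.90) in the 9 Lgr5 arrays. Slc26a7 was at 6.83 to 7.24 (median 7.12) in Dclk arrays, against 4.50 to 7.07 (median 6.34) in Lgr5 arrays. Kcne2 was at 6.66 to 7.59 (median 7.25) in Dclk arrays, against 5.13 to 7.41 (median 6.50) in Lgr5 arrays. The ranges overlapped, and the Lgr5 range was the wider one for each of these genes. The differences were 0.63 ± 0.17 for Atp4a (adjusted p = 0.0573), 0.86 ± 0.25 for Slc26a7 (0.0767) and 0.81 ± 0.26 for Kcne2 (0.119). Limma called 0 of the 10 genes, with 5 at an unadjusted p below 0.05, where 0.945% of all genes tested were called.

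This contrast stood close to the threshold. Calls were made for 3 genes with squamous and skeletal muscle covariates, 3 with the chief and neck cell covariate and 5 with array quality weights, all higher in the Dclk lines, where 0.695%, 3.42% and 6.29% of all genes were called in either direction. Without single arrays up to 4 were called (4 without Lgr5_Notch2IC replicate 2, 3 without Lgr5_Notch1fl replicate 3), where 1.06% and 1.6% of all genes were. Without the low arrays Lgr5_Notch1fl replicate 2 or Lgr5_Notch2IC replicate 3, 0 were called, where 1.07% or 2.42% of all genes were. The median difference was then 0.42 or 0.48, and Slc9a2 was at -0.08 without the first of these arrays. In a fit that left out the 10 arrays with liver or intestinal signal, Atp4a differed by 0.53 (adjusted p = 0.303). Enterocyte marker means were 4.40 to 8.84 (median 4.81) in Dclk arrays, against 5.27 to 10.02 (median 6.46) in Lgr5 arrays. Driver, age and age at tamoxifen differ together here and cannot be told apart. Of the acid secretion regulators, Ghrl, the ghrelin gene (1.07 ± 0.27, adjusted p = 0.0449), and Sst (1.50 ± 0.37, adjusted p = 0.0453) were called higher in the Dclk lines, and no gene of the other 3 pathway lists was called.

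Activated against floxed Notch2 gave no call under either driver. Under Lgr5, all 10 differences of Lgr5_Notch2IC minus Lgr5_Notch2fl were negative with a median of -0.64, and limma called 0, with 2 at an unadjusted p below 0.05 (0.0722% of all genes were called). Without Lgr5_Notch2IC replicate 3 the median was -0.30 and 0 were called, where 0.295% of all genes were. Kcnq1 and Aqp4 (0.11) then turned positive. Under Dclk, 0 were called and 0 had an unadjusted p below 0.05 (0.0328%), and the differences ran from -0.35 for Esrrg to 0.31 for Slc26a9. The difference between the drivers in this effect was not tested.

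The 10 genes moved together across arrays to different degrees. Over the 48 arrays, the correlations of the 45 pairs ran from 0.27 to 0.99 with a median of 0.72, and with group means removed from 0.15 to 0.99 with a median of 0.72. Set against the mean of Atp4a and Atp4b, Kcne2 had the highest r of the other members (0.92), followed by Slc26a7 (0.88), Slc26a9 (0.88), Esrrg (0.87), Kcnq1 (0.83), Slc9a4 (0.70), Aqp4 (0.68) and Slc9a2 (0.56). The order is of the whole arrays, which share tissue make-up and RNA quality, so these values describe the samples. The genes outside the 10 that were most like the pump subunits over 48 arrays were Smim38 (r = 0.95), Gga2 (0.93), Kcnj16 (0.93), Tmprss9 (0.92), Clic6 (0.91), Acadsb (0.91), Chga (0.91), Lpl (0.91), Ldhb (0.90) and Hamp2 (0.90). With group means removed, Smim38, Gga2, Clic6, Tmprss9, Ldhb and Acadsb stayed among the first 10, joined by Rap1gap2, Slc4a2, Vegfb and Magi1. These genes were picked over the same arrays as the transgene comparisons, so their differences there are a description: between transgenic and wild-type mice on chow they ran from -0.09 for Magi1 to -1.27 for Lpl.

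Of the lists, the mean of the acid secretion regulators had an r of 0.90 with the mean of the 10 genes over 48 arrays and the metabolic list 0.90. The ion transport list had 0.74, the enteroendocrine markers 0.80, the chief cell markers 0.54, the pit cell markers 0.47 and the tubulovesicle list 0.32. Squamous (-0.56) and neutrophil (-0.61) markers ran the other way. With group means removed, the values were 0.90 for the regulators, 0.80 for the metabolic list, 0.71 for the chief cell markers, 0.46 for the neck cell markers (-0.25 before), -0.61 for the squamous markers and -0.33 for the neutrophil markers.

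**Figure D5:**
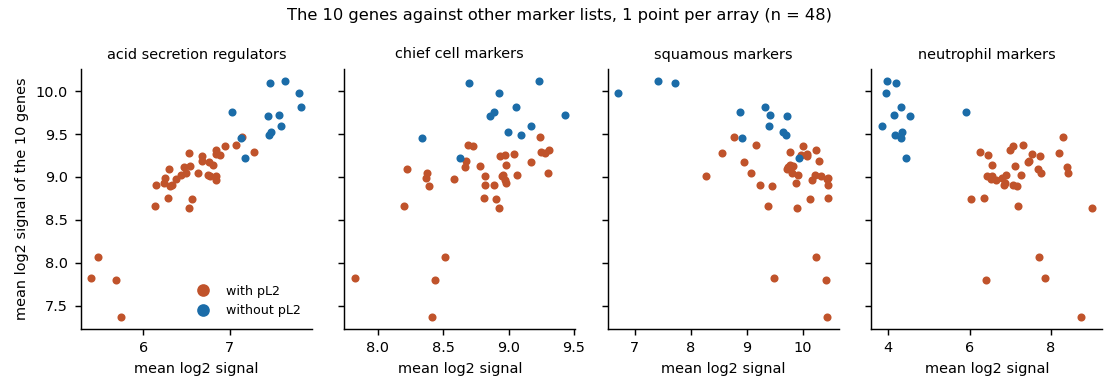
Mean log2 signal of the 10 genes (vertical axis) against the mean log2 signal of 4 gene lists (horizontal axes), with 1 point per array, orange with the transgene and blue without it. The points rise together with the acid secretion regulators (r = 0.90 over 48 arrays) and spread more widely against chief cell markers (r = 0.54), squamous markers (-0.56) and neutrophil markers (-0.61).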

How the data were processed

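Total RNA of whole squamocolumnar junction and cardia tissue was measured on Affymetrix arrays, 1 array per sample. Per the submitters' processing notes, the authors' deposited values are log2 signals made with RMA in Affymetrix Expression Console (version not given in the sources used here), which corrects background, normalizes quantiles across arrays and summarises probes. Depth does not apply, and 3 arrays a group limit the precision. Of 34390 probe sets, 23521 had 1 gene symbol, 1814 several and 9055 none. The brightest single-symbol probe set stood for a gene, and 15242 genes were tested, those that exceeded the median of an array in 3 or more arrays. No 2 arrays held identical values.

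All 48 arrays were fitted in R 4.3.3 with limma 3.58.1 (a mean for each of 16 groups, 32 residual degrees of freedom, 23 comparisons and an F test). P-values are two-sided, from limma's moderated statistics with Benjamini-Hochberg adjustment over all tested genes, called below 0.05. Marker and list means are means of log2 signals. Correlations are Pearson's r. Start regions came from RefSeq (GRCm38.p6). The fit was tested on simulated data. Beside the 10 genes, the text names at most 2 genes a direction from each pathway list by adjusted p, and the 10 genes most like the pump subunits by each measure. The members, lists and alternatives were chosen with earlier results of these data known. The alternatives were other filters, all probe sets of a gene, trended and robust moderation, array weights, cyclic loess, covariates, left-out arrays and the compared groups alone.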

Additional observations from a re-analysis of the deposited data

How the results depend on the processing

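Members called were recounted for each comparison and the F test under each alternative setting, and 263 of the 287 counts stayed within 1.5 times the reported one. Counts of 0 that stayed 0 are included in these, and most comparisons reported 0. Percentages in parentheses are the shares of all genes called in either direction in that setting. For transgenic against wild-type mice averaged over facilities (3 reported, 21.9%), array quality weights gave 7 (40.9%) and the chief and neck cell covariate 7 (25%). The compared groups alone gave 8 (21.7%), and squamous and skeletal muscle covariates 0 (0.295%). At MRI (2 reported, 23%), array weights gave 5 (43.4%) and squamous and skeletal muscle covariates 0 (0.0656%). The sex-linked covariate gave 1 (18.7%), and the fit without arrays high in liver or intestinal transcripts 1 (13.4%). No filter on dim genes gave 1 (3386 of 22180 genes). At Freising (0 reported, 1.64%), array weights gave 4 (16.2%), the chief and neck cell covariate 3 (2.91%) and the compared groups alone 2 (1.91%). On the high-fat diet (0 reported, 1.16%), array weights gave 6 (18.6%) and the chief and neck cell covariate 7 (3.94%). For pL2_FXR against FXR (3 reported, 10.1%), squamous and skeletal muscle covariates gave 0 (0.558%) and leaving out the liver or intestinal arrays 1 (7.39%). For Lgr5_Notch2IC against pL2_MRI_chow (0 reported, 0.138%), array weights gave 5 (7.28%), the chief and neck cell covariate 3 (1.33%) and the squamous and skeletal muscle covariates 1 (1.21%). For Dclk against Lgr5 lines (0 reported, 0.945%), the counts were 5 (6.29%), 3 (3.42%) and 3 (0.695%) under these settings. Array weights also gave 1 (27%) for IL8 against pL2 and 1 (30.4%) for Dclk_Notch2fl against pL2, both higher. As reported, 1.82% and 0.256% of all genes were called there. The cause of these changes was not tested. Array weights also raised the calls over all genes on the averaged comparison to 6235, against 3341, and the estimation of those weights stopped short of its tolerance; the squamous and skeletal muscle covariates lowered them to 45.

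Leaving out 1 array at a time gave 3 to 4 members on the averaged comparison, 1 to 2 at MRI (1 without WT_MRI_chow replicate 1 or 3 or pL2_MRI_chow replicate 2 or 3), 1 to 3 for pL2_FXR against FXR, 0 to 7 on the high-fat diet, 0 to 5 for Lgr5_Notch2IC, 0 to 4 for Dclk against Lgr5 lines (1 without Lgr5_Notch2fl replicate 3 or Dclk_Notch2IC replicate 3) and 7 to 10 for the F test. The other comparisons gave 0 throughout. Of all 15242 genes, the same fits called 2407 to 3390 on the averaged comparison, 2071 to 3602 at MRI and 577 to 1937 for pL2_FXR. They called 29 to 811 on the high-fat diet, 0 to 487 for Lgr5_Notch2IC and 28 to 430 for Dclk against Lgr5 lines. The F test passed 7238 to 8489 genes, and the other comparisons called 0 to 990. No called member changed direction in any setting run. No paired analysis was possible because the labels give no replicate numbers, and replicates were numbered in accession order.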
